A study of Homo sapiens with 6 samples.

Results

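The genes described here build ribosomes: 50 protein-coding genes for RNA polymerase I subunits, small nucleolar ribonucleoprotein (snoRNP) proteins, assembly factors of both ribosomal subunits, and abundant nucleolar proteins. They were chosen by gene symbol as known members of the pathway, with earlier results of these data known. All 50 were found among the 60623 gene IDs of the mRNA table. The cells were MRC5, a human lung fibroblast line of wild-type genotype, sampled after 48 h in 3 groups: a control given DMSO, a TGF-β1 group, and a group given luteolin together with TGF-β1. The cytokine TGF-β1 drives fibroblasts towards a contractile, matrix-producing myofibroblast state, and luteolin is a flavonoid from plants. No dose is stated in the sources used here, and 1 cell line stands for lung fibroblasts in all 3 groups.

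Ribosome assembly begins in the nucleolus, where RNA polymerase I transcribes ribosomal DNA into a long precursor RNA. The snoRNPs modify this precursor at sites chosen by their guide RNAs, while a large processome on the growing RNA forms the small subunit and a separate series of particles forms the large subunit. The pathway is among the costliest of a growing cell, is known to follow growth signals and the transcription factor MYC, and is generally more active in dividing than in resting cells.

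Each group had 1 mRNA library, with total counts of 17876657 (control), 14609132 (TGF-β1) and 15563805 (luteolin + TGF-β1). There is therefore no replicate check: every ratio compares 2 libraries, and its 95% interval, on the log2 scale, covers counting error only. The words higher and lower are kept for ratios of 2-fold or more whose interval leaves out equality. Levels are given as TMM-scaled CPM, which sets each count against its library size, always in the order control, TGF-β1, luteolin + TGF-β1. All 9 fibroblast markers were detected, at summed levels of 20485, 30507 and 52709 CPM, and they did not move together. DCN, at 1169.9, 168 and 759.6 CPM, and LUM, at 222, 31.5 and 119 CPM, were lower under TGF-β1 than in control, whereas COL1A1, at 8208, 17225 and 30153 CPM, was higher (log2 ratio 1.07, but 0.95 with total counts). With luteolin + TGF-β1, COL1A2, PDGFRB, DCN and LUM were higher than under TGF-β1 (PDGFRB not with total counts), and PDGFRA was at 209.6, 169 and 112 CPM. The part of these differences in the results was not tested. The 9 epithelial, endothelial and leukocyte markers together had 13, 7 and 4 counts, with PTPRC, PECAM1 and CD3E at 0 counts in each library. In bulk RNA, fewer cells of a kind and less RNA per cell cannot be told apart.

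Ribosome biogenesis genes were at their lowest with luteolin + TGF-β1. Together they took 0.461% of control counts (exact 95% interval 0.458% to 0.464%), 0.508% of the TGF-β1 library (0.505% to 0.512%) and 0.235% of the luteolin + TGF-β1 library (0.232% to 0.237%). Without NCL and NPM1, the most abundant of them, the shares were 0.301%, 0.345% and 0.164%. The plot of levels in the 3 libraries shows most lines dropping at the last step in every role group.

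**Figure D1:**
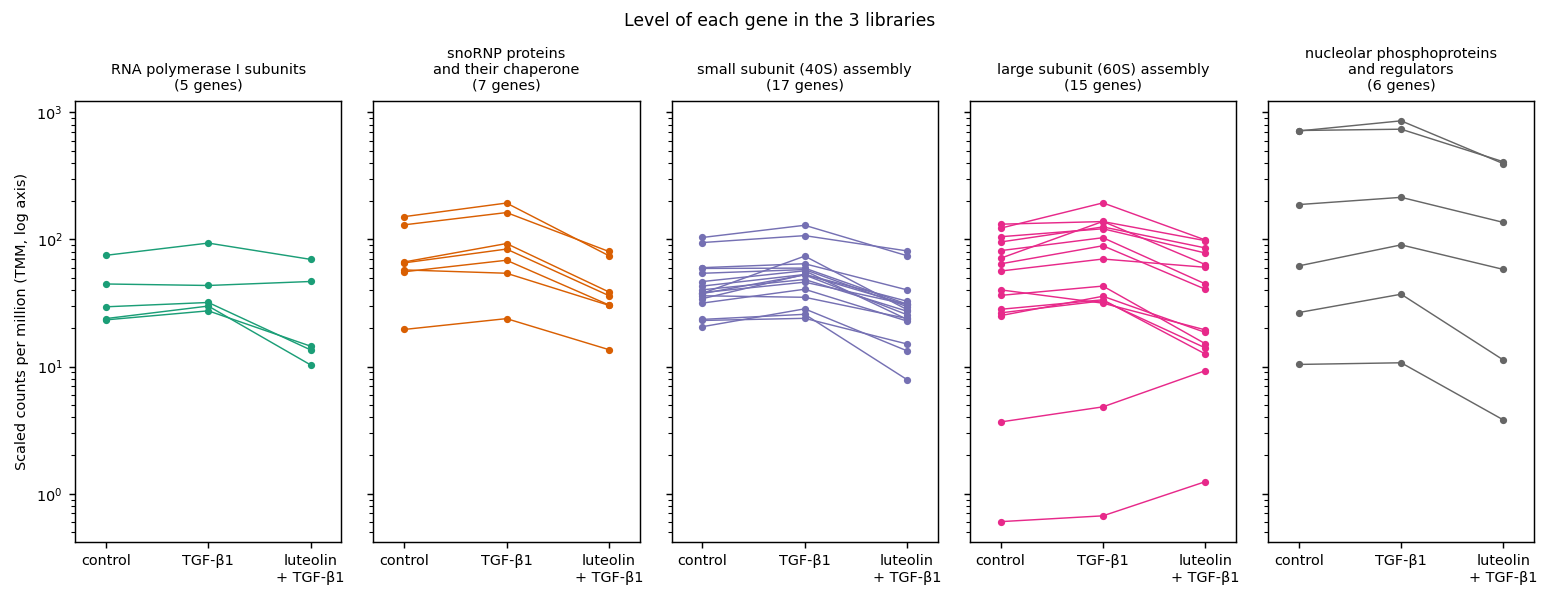
Level of each of the 50 genes in the 3 mRNA libraries, as TMM-scaled CPM on a log axis, in 5 panels by role; each line is 1 gene and each point 1 library. Most lines are lowest in the luteolin + TGF-β1 library, whereas PPAN and NOP2, the lowest lines of the large subunit panel, are highest there.

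With luteolin + TGF-β1, 21 of the 50 genes were lower than under TGF-β1 and 0 higher, and the median log2 ratio was -0.93, or 1.91-fold lower. Over all 13703 genes at 1 CPM or more, 14.8% were called lower and 12.5% higher, and the median was -0.04. Without a size limit, 47 of the 50 had an interval wholly below equality, against 37.7% of all genes, and 1 an interval wholly above it, against 34.3%. At 1.5-fold, 40 were lower, against 24.3% of all genes. The median of the 50 lay beneath that of all genes by 0.89 with TMM, by 0.89 with total counts and by 0.91 with upper quartile scaling (log2 units), although the median of all genes itself moved to -0.27 and 0.15 under the last 2 scalings. The number called lower followed those shifts: 33 with total counts, beside 19.7% of all genes, and 14 with the upper quartile, beside 11.7%. The 12 genes added with total counts were POLR1C, NOP58, GAR1, UTP14A, HEATR1, NOP14, NOL6, PNO1, NAT10, NOC2L, URB2 and NPM1. The 7 genes not called with the upper quartile were NHP2, NOLC1, NOC4L, NOB1, BOP1, RRP1B and NCL, and NOLC1 was also not called with DESeq2 size factors. Higher genes made up 45.7% of all calls under TMM, 30.8% under total counts and 58.1% under the upper quartile.

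Under TGF-β1 alone, 0 of 49 eligible genes differed 2-fold from control in either direction, against 3.70% of 13416 genes called higher and 6.67% called lower. NOP2 was not eligible, at under 1 CPM in both libraries. The median log2 ratio was 0.30 (all genes -0.01), and 35 of the 49 had an interval wholly above equality, against 28.8% of all genes, while NOC3L alone had one wholly below it, against 29.3%. At 1.5-fold, RRP9, BOP1, NOC2L and RRP12 were higher, 4 of 49 against 8.29% of all genes, so that this count was near the share over all genes. With total counts the median of the 50 genes was 0.18 and that of all genes -0.14.

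Luteolin + TGF-β1 was also compared with control. Here 9 of the 50 genes were lower and 1 higher, against 17.1% and 12.4% of 13859 genes, so that the count of lower genes was near the share over all genes. With total counts 23 of the 50 were lower, beside 25.5% of all genes, and with the upper quartile 5, beside 14.2%. The median of -0.60 stood beside -0.08 for all genes, and 43 genes had an interval wholly below equality, against 40.8% of all genes. At 1.5-fold, 26 were lower, against 26.3% of all genes, and 1 was higher, against 20.3%. The 9 lower genes were POLR1B, POLR1E, NOP56, DDX10, WDR12, RRS1, NOC3L, NPM3 and LYAR, and the higher gene was PPAN. NOP56 was the nearest to the limit, at -1.02, and was no longer called with DESeq2 size factors (-0.98). Any 2 of these 3 comparisons share a library, so their ratios are not independent, and the cumulative curves are shown for each comparison on its own.

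**Figure D2:**
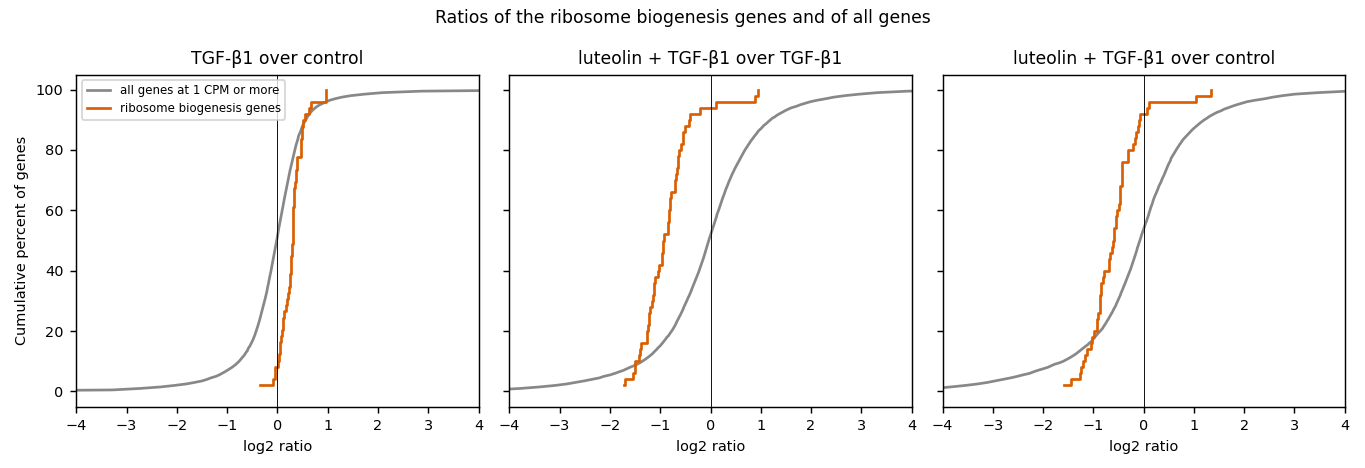
Cumulative percent of genes (vertical axis) by log2 ratio (horizontal axis) for the ribosome biogenesis genes and for all genes at 1 CPM or more, in 3 panels, 1 per comparison. The curve of the ribosome biogenesis genes has its median at 0.30, -0.93 and -0.60 from left to right, beside -0.01, -0.04 and -0.08 for all genes.

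Proliferation genes moved in the same library. All 14 proliferation markers were lower with luteolin + TGF-β1 than under TGF-β1, with a median log2 ratio of -3.77 and a range from -6.45 to -1.32, and their summed level was 2175, 2672 and 225 CPM. MKI67, the Ki-67 gene, was at 332, 481 and 15.1 CPM. The part of this difference in the ribosome biogenesis result was not tested.

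Promoters were examined because CACGTG, the canonical E-box, is the site that MYC with MAX and several other factors are known to bind. RefSeq windows of 300 bases on GRCh38.p14, from 250 bases before to 50 after each annotated start, were found for 41 of the 50 genes. CACGTG, which reads the same on both strands, stood in at least 1 window of 19 of these 41 genes (46.3%). Among all 27305 symbols with a window 8.77% held it, and among 10250 whose gene was at 1 CPM or more in the luteolin comparison 12.4% did. Of the 19 copies, 13 began downstream of the annotated start, between transcript bases 4 and 36, and 5 of the other 6 began within 100 bases upstream. In percentage points, the other motifs, searched on both strands, were nearer to the share among expressed genes. CCGCCC (GC box) was found for 31 of 41 genes, 75.6% against 77.5%, and CCAAT for 16, 39.0% against 43.3%. TATAAA was found for 1 gene only, 2.44% against 8.10%, which is near in percentage points but not as a ratio.

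Shown are the 3 genes with CACGTG and the lowest luteolin ratios, and NPM3, the lowest without it, each from 120 bases before the start to 30 after, 5′ to 3′ on the gene's strand, with CACGTG in capitals. LYAR lies at chr4:4289992-4290141, minus strand, and is 1 of 2 windows of that gene, RRP9 at chr3:51941875-51942024, minus strand, UTP20 at chr12:101279985-101280134, plus strand, and NPM3 at chr10:101783417-101783566, minus strand.
LYAR: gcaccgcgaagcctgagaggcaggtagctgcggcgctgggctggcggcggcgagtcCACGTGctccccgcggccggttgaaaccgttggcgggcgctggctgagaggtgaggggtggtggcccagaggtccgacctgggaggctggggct
RRP9: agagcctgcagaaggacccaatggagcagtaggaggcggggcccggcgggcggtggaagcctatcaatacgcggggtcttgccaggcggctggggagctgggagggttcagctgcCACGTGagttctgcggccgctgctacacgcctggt
UTP20: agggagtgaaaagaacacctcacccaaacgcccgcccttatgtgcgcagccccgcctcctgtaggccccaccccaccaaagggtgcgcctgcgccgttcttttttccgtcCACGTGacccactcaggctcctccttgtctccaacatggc
NPM3: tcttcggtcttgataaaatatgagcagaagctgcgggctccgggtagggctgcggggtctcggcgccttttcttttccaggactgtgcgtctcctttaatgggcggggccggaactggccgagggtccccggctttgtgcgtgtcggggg
The motif begins 64, 5 and 10 bases before the start in LYAR, RRP9 and UTP20. A match describes letters, not binding. The median log2 ratio of luteolin + TGF-β1 over TGF-β1 was -0.80 for the 19 with it (5 called lower) and -1.0 for the 22 without it (11 called lower). Over all genes the medians were -0.07 for the 1272 with CACGTG and -0.07 for the 8980 without it.

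RNA polymerase I subunits split by gene, with 2 of 5 lower and 0 higher, against 14.8% lower and 12.5% higher over all genes. With total counts 3 were lower, beside 19.7% of all genes, and with the upper quartile 2, beside 11.7%. POLR1B, which forms the catalytic core together with POLR1A, was at 23.9, 29.9 and 10.3 CPM. Its value with luteolin + TGF-β1 was the lowest of the 3, 2.90-fold lower than under TGF-β1 (log2 ratio -1.54, interval -1.82 to -1.26). POLR1E, the subunit PAF53 and the most abundant of the 5 per length at 48.5, 50.8 and 18.6 TPM, the authors' length-adjusted transcript level, was at 29.5, 31.9 and 13.5 CPM and was 2.36-fold lower (-1.24, -1.49 to -0.99). POLR1D, a small subunit shared with RNA polymerase III, was at 44.7, 43.5 and 46.7 CPM, nearly level across the libraries (log2 ratio 0.10, -0.06 to 0.26). POLR1C, the partner of POLR1D in both polymerases, had a ratio of -0.92 (-1.18 to -0.68), and POLR1A, the largest subunit, one of -0.43 (-0.55 to -0.31). The intervals of POLR1C and POLR1D do not overlap.

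The snoRNP proteins were the group with the largest share of lower genes, 5 of 7 against 14.8% of all genes, and a median of -1.17. Total counts gave 7 lower (all genes 19.7%) and the upper quartile 3 (all genes 11.7%). NOP56, a core protein of the box C/D particles that guide RNA methylation, was at 151, 193 and 74.6 CPM and 2.59-fold lower with luteolin + TGF-β1 than under TGF-β1 (-1.38, -1.48 to -1.27). FBL, fibrillarin, the methyltransferase of the same particle, was at 66.5, 92.9 and 38.7 CPM (-1.26, -1.41 to -1.12). NOP58, which pairs with NOP56 in that particle, was at 57.6, 54.3 and 30.3 CPM, with a ratio of -0.84 (-1.01 to -0.67) that was short of 2-fold and whose interval lies above that of NOP56. In the box H/ACA particles, which guide pseudouridylation, NHP2 was the most abundant of the 7 genes per length in control and with TGF-β1. It was at 151, 181 and 69.5 TPM over the 3 libraries. NOLC1, a chaperone of snoRNPs, was level with NHP2 in the luteolin + TGF-β1 library (135, 163 and 69.6 TPM). NHP2 was at 55.7, 68.7 and 30.6 CPM and lower at -1.17 (-1.34 to -1.0), and DKC1, the pseudouridine synthase, was at 65.5, 84.1 and 36.2 CPM and lower at -1.22 (-1.37 to -1.06). GAR1, the remaining H/ACA protein here, was at 19.6, 23.8 and 13.6 CPM with the smallest difference of the 7 (-0.81, -1.07 to -0.55). NOLC1, at 130.4, 163 and 80.5 CPM, was lower at -1.02, just past the size limit.

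Among 17 assembly factors of the small subunit, 5 were lower and 0 higher, against 14.8% and 12.5% of all genes, with a median of -0.83. With total counts 11 were lower, beside 19.7% of all genes, and with the upper quartile 3, beside 11.7%. DDX10, a DEAD-box helicase, was at 23.5, 25.8 and 7.90 CPM and had the lowest ratio of the group, 3.27-fold below TGF-β1 alone (-1.71, -2.03 to -1.40). RRP9, a protein of the U3 snoRNP and the most abundant of the 17 per length at 100.2, 191 and 62.5 TPM, was at 37.7, 74.0 and 28.1 CPM. It stood highest with TGF-β1, at 1.96-fold above control, and was 2.64-fold lower with luteolin + TGF-β1 than under TGF-β1 (-1.40, -1.57 to -1.23). UTP20, a scaffold of the processome, was lower at -1.27 on 46.7, 56.7 and 23.5 CPM, and NOC4L, which binds NOP14, at -1.10 on 20.6, 28.5 and 13.3 CPM. NOB1, the endonuclease that makes the last cut of small subunit RNA, was lower at -1.04 on 37.5, 52.6 and 25.6 CPM. Its partner PNO1 was at -0.83 and NOP14 at -0.79, both short of 2-fold.

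The remaining small subunit factors also had intervals wholly below equality. The RNA acetyltransferase NAT10 was at -0.97 and HEATR1 at -0.94, close to the size limit. HEATR1, UTP15, WDR43 and WDR75 belong to a processome module also needed for transcription of ribosomal DNA, and the other 3 of its genes had ratios of -0.67, -0.68 and -0.55. UTP14A was at -0.83, NOL6 at -0.80, RRP12, which takes part in subunit export, at -0.70, and BYSL at -0.58. TSR1, a late factor on the maturing small subunit, was at 94.6, 107 and 81.3 CPM and had the smallest difference of the 17 (-0.40, -0.51 to -0.29).

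**Figure D3:**
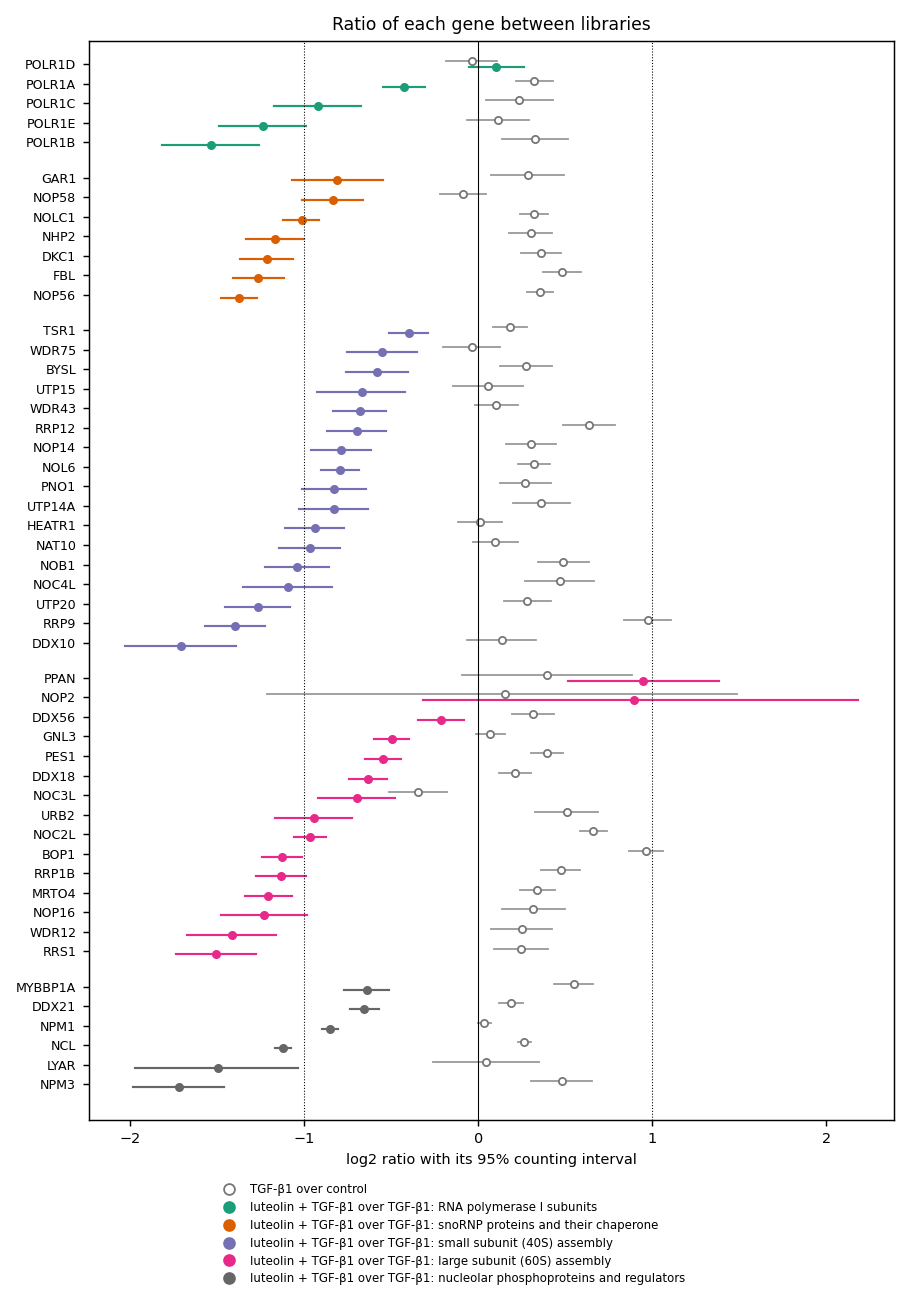
log2 ratio of each gene with its 95% counting interval, for TGF-β1 over control (open grey circles) and luteolin + TGF-β1 over TGF-β1 (filled circles, coloured by role), with dotted lines at 2-fold. Filled circles lie left of equality apart from POLR1D, PPAN and NOP2, and open circles lie right of it apart from POLR1D, NOP58, WDR75 and NOC3L.

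Large subunit factors had 6 of 15 genes lower, against 14.8% of all genes, and 0 higher, with a median of -0.95. Under total counts 8 were lower (all genes 19.7%). Under the upper quartile 4 were lower (all genes 11.7%) and 1, PPAN, higher. RRS1, which helps bring the 5S particle into the large subunit, was at 36.3, 43.0 and 15.1 CPM and 2.84-fold lower than under TGF-β1 (-1.51, -1.74 to -1.28). WDR12, BOP1 and PES1 form a complex needed for processing of large subunit RNA, and they differed in size. WDR12 was at 28.2, 33.6 and 12.6 CPM and lower at -1.42 (-1.67 to -1.16), and BOP1 was at 71.2, 139 and 63.5 CPM and lower at -1.13 (-1.24 to -1.01). PES1 was at 95.6, 126 and 85.8 CPM with a ratio of -0.55 (-0.65 to -0.44), an interval that overlaps neither of the others. BOP1 stood 1.95-fold above control with TGF-β1 and was near control with luteolin + TGF-β1 (log2 ratio -0.16 over control), whereas WDR12 was lower than control there at -1.17. The span of BOP1 overlaps that of SCX, so the assignment of some BOP1 reads is uncertain.

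Further lower large subunit genes were NOP16 at -1.23, MRTO4, which holds the place of a ribosomal stalk protein on the precursor, at -1.21, and RRP1B at -1.14. GNL3, nucleostemin, a GTPase and the most abundant gene of this group per length at 167, 169.8 and 104 TPM, was at 132, 138 and 97.9 CPM with a ratio of -0.50 (-0.60 to -0.40). The paired factors NOC2L and NOC3L had luteolin ratios of -0.97 and -0.70. They differed under TGF-β1, with NOC2L at 123, 194 and 99.1 CPM (0.66 over control, 0.58 to 0.74) and NOC3L at 40.1, 31.5 and 19.4 CPM (-0.35, -0.51 to -0.18). URB2 was at -0.95, and of the DEAD-box helicases DDX18 was at -0.63 and DDX56 at -0.22 (-0.35 to -0.08).

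PPAN and NOP2 had ratios above equality. PPAN, a large subunit factor related to yeast Ssf1, had 73, 72 and 127 counts, highest with luteolin + TGF-β1, and was 2.53-fold higher than control there (1.34, 0.91 to 1.78) and at 0.95 over TGF-β1 alone. Its span overlaps P2RY11 and their readthrough gene, so its reads may be split, and P2RY11 had 38, 47 and 171 counts. NOP2, a methyltransferase of large subunit RNA, had only 12, 10 and 17 counts, at 0.527, 0.568 and 0.910 TPM, and its interval spans equality in all 3 comparisons. Why so few reads were assigned to NOP2 was not tested. Without PPAN and NOP2, the counts of lower genes stayed at 21 and 9, and 0 genes were higher than control. With total counts PPAN also fell just short of 2-fold over control.

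Nucleolar phosphoproteins and regulators held the most abundant transcripts, and 3 of 6 were lower, against 14.8% of all genes. By total counts 4 were lower and by the upper quartile 2, beside 19.7% and 11.7% of all genes. NPM1, nucleophosmin, ranked 1 of the 50 per length at 771, 765 and 366 TPM and was at 720.1, 737 and 409 CPM, with a luteolin ratio of -0.85 (-0.90 to -0.81) and a TGF-β1 ratio of 0.03. The table lists 49 NPM1 pseudogenes with 493, 434 and 197 counts in all, few beside the 14333, 11008 and 5588 of NPM1 itself. NCL, nucleolin, was at 714, 858 and 395 CPM and 2.17-fold lower (-1.12, -1.17 to -1.07). NPM3, a smaller relative of nucleophosmin, was at 26.6, 37.1 and 11.3 CPM and had the lowest luteolin ratio of all 50 genes, 3.30-fold lower (-1.72, -1.99 to -1.46); its promoter window is the one shown without CACGTG. LYAR, a nucleolar zinc-finger protein, was at 10.4, 10.7 and 3.80 CPM and lower at -1.50 (-1.98 to -1.04) on 207, 160 and 52 counts. DDX21, a helicase linked to both RNA polymerase I and snoRNPs, was at -0.66. MYBBP1A had the smallest difference of the 6, -0.64 (-0.77 to -0.51), on 62.0, 90.7 and 58.1 CPM.

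Levels per length spanned a wide range. The median of the 50 genes was 52.4, 61.7 and 29.9 TPM, beside 17.8, 16.8 and 13.0 for the genes eligible in the TGF-β1 comparison. Next after NPM1 in control came NCL, GNL3, DDX21 and NHP2, and the lowest were NOP2, PPAN, DDX10 and WDR12. NPM1 and NCL held ranks 1 and 2 in each library. NPM3 moved from rank 10 in control and with TGF-β1 to rank 19 with luteolin + TGF-β1, RRS1 from 13 and 16 to 25, and DDX56 from 24 and 22 up to 15.

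On hg38, NPM3 spans chromosome 10 from 101781325 to 101783446, POLR1B chromosome 2 from 112542036 to 112579818, NOP56 chromosome 20 from 2652632 to 2658393, DDX10 chromosome 11 from 108665069 to 108940927 and NCL chromosome 2 from 231453531 to 231464484, by the RefSeq annotation, each as the whole protein-coding gene. Their Ensembl IDs in the table are ENSG00000107833, ENSG00000125630, ENSG00000101361, ENSG00000178105 and ENSG00000115053. The spans of 13 of the 50 genes overlap another protein-coding gene. Among the genes called lower these were NHP2, NOP16 and BOP1 in the luteolin comparison and NOC3L against control. Among those 1.5-fold higher under TGF-β1 they were BOP1 and NOC2L. With the strand setting of the counting unknown here, reads in an overlap cannot be assigned with certainty.

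Ribosome assembly genes outside the 50 were read from lists of the same pathway. Over the 5 lists of polymerase I, snoRNP, small subunit, large subunit and exosome genes, 25 of 113 were lower with luteolin + TGF-β1 than under TGF-β1 and 0 higher, with a median of -0.63, against 14.8% lower over all genes. This count followed the scaling: 41 were lower with total counts, beside 19.7% of all genes, and 13 with the upper quartile, near the 11.7% of all genes. The median was -0.85 and -0.46 under these scalings, where all genes stood at -0.27 and 0.15. Of 10 other polymerase I genes 2 were lower: POLR1G at -1.35 and POLR1H at -1.13, both polymerase subunits. POLR1G, at 22.4, 59.9 and 23.5 CPM, was also the single gene of the 113 called higher under TGF-β1 (1.42, 1.26 to 1.59), and it was near control with luteolin + TGF-β1 (0.07). Of 12 other snoRNP genes 4 were lower. They were TCOF1, the nucleolar protein treacle, at -1.28, the paired ATPases RUVBL1 at -1.26 and RUVBL2 at -1.28, and NUFIP1 at -1.27. The snoRNP proteins NOP10 and SNU13 of this list were at -0.26 and -0.32, and RPAP3 was at 0.42. Without a size limit, 9 of the 12 had an interval wholly below equality and 1 wholly above it, against 37.7% and 34.3% of all genes.

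Other small subunit factors had 7 of 39 genes lower, 17.9% and so near the 14.8% of all genes, and a median of -0.59. The lowest ratios were those of EMG1, an RNA methyltransferase, at -1.22, RCL1 at -1.18, PWP2 at -1.16 and DIMT1 at -1.13. Among other large subunit factors 8 of 38 were lower, 21.1% (median -0.60), and with the upper quartile 3, or 7.89%, beside 11.7% of all genes. The lowest ratios were those of EBNA1BP2 at -1.60, WDR74 at -1.42, the helicase DDX54 at -1.24 and PELP1 at -1.11. The RNA exosome, which trims ribosomal RNA precursors, had 4 of 14 genes lower, 28.6% against 14.8% of all genes (median -0.83). They were EXOSC5 at 8.99, 14.1 and 2.49 CPM and -2.50, EXOSC2 at -1.31, EXOSC3 at -1.28 and the helicase MTREX at -1.08. With total counts 7 exosome genes were lower, beside 19.7% of all genes, and with the upper quartile 3, beside 11.7%. Of the genes named as lower from these lists, POLR1H, PWP2, DIMT1, PELP1 and MTREX were not called with the upper quartile. RIOK3, at 0.95 over TGF-β1 with TMM, was called higher there with the upper quartile (1.12). Over control, luteolin + TGF-β1 had 12 of the 113 lower and 0 higher, 10.6% lower against 17.1% of all genes. Total counts gave 45 lower (39.8%, all genes 25.5%) and the upper quartile 7 (6.19%, all genes 14.2%).

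Ribosomal protein genes, the products that the assembly factors put together, had a median log2 ratio of 0.04 between luteolin + TGF-β1 and TGF-β1 alone. Of 32 small subunit proteins 0 were called in either direction, and of 46 large subunit proteins RPL17 was lower, at -1.43 on 294, 220 and 75 counts (RPL17 has named pseudogenes and a readthrough transcript with its neighbour). Over all genes 14.8% were lower and 12.5% higher. Without a size limit, 27 of the 78 had an interval below equality and 36 above it, against 37.7% and 34.3% of all genes. Their summed level was 42314, 40822 and 40478 CPM, and that of the 50 biogenesis genes 4138, 4975 and 2671 CPM. The median for small and large subunit proteins turned with the scaling, to -0.16 and -0.23 with total counts and 0.23 and 0.16 with the upper quartile. The median of all genes moved the same way, to -0.27 and 0.15. RPS9 was called lower with total counts and RPL27 higher with the upper quartile and DESeq2 size factors. Under TGF-β1 the median of the 78 was -0.08 (all genes -0.01), with RPL39 alone lower, at -1.21, against 6.67% of all genes. Whether the ribosomal protein genes differ from the assembly genes was not tested. The strip plot of gene lists sets these medians side by side.

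**Figure D4:**
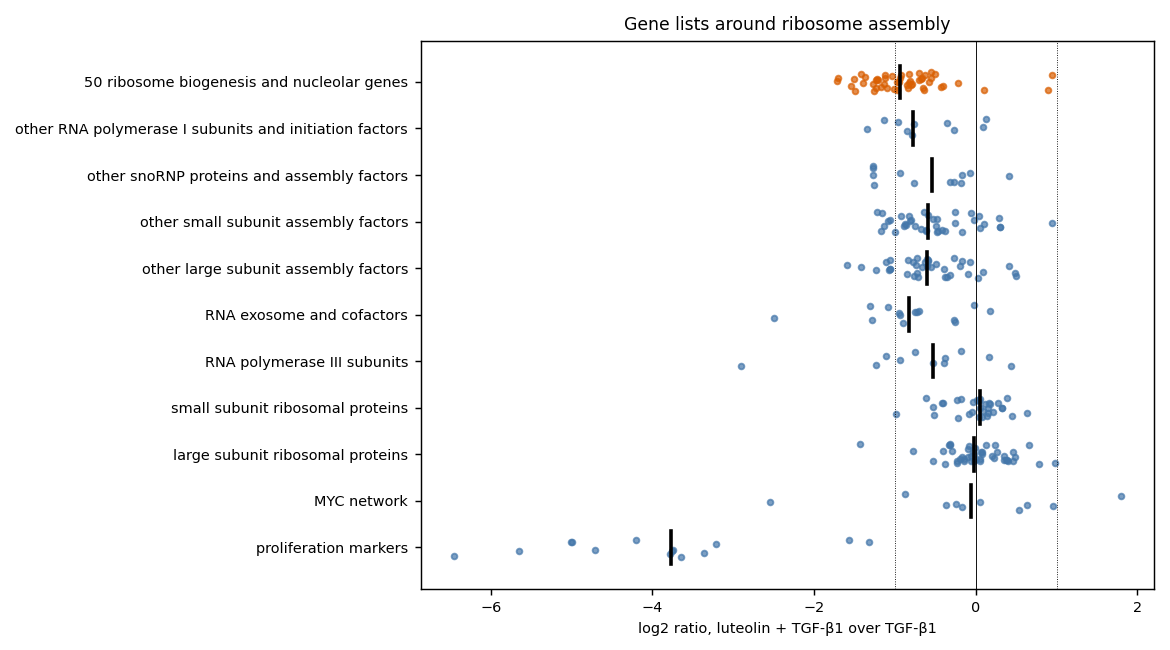
log2 ratio of luteolin + TGF-β1 over TGF-β1 for each gene at 1 CPM or more in 11 lists, with 1 point per gene, a black bar at each list's median and dotted lines at 2-fold. The medians are -0.93 for the 50 genes, between -0.53 and -0.83 for the other assembly, exosome and RNA polymerase III lists, 0.05 and -0.02 for the ribosomal proteins of the small and large subunit, -0.05 for the MYC network and -3.77 for the proliferation markers.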

How the data were processed

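The mRNA of 3 groups, 1 library each, was sequenced with the TruSeq Stranded mRNA kit from TRIzol-extracted RNA, per the labels' protocols. Per the file headers, the table holds a raw count for each Ensembl gene and library (whole numbers) and a TPM value that the authors computed. The submitters' processing notes list, without saying what each did, the tools featureCounts 2.0.1, HISAT2 2.1.0, edgeR 3.36.0, fastp 0.20.0 and build hg38; the annotation release and strand setting were not given in the sources used here. Small RNA libraries were not used here.

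Each count was scaled by library total and by a TMM factor (edgeR 4.0.16: 1.11, 1.02 and 0.879). A gene was eligible if either library of a comparison had 1 CPM or more. With 1 library per group no residual degrees of freedom remain, so no test was run. Ratios have exact 95% intervals (Clopper-Pearson, given the summed count of the pair). These cover counting error only, because 1 library per group gives no spread between cultures. No molecular identifiers are mentioned and PCR copies are not independent molecules, so the intervals may be too narrow even for counting error. The intervals were checked on simulated counts with known ratios and counting error only. That check does not cover differences between cultures or the scaling of libraries that differ in many genes. A count of 0 allows up to 3 counts, or 0.151, 0.201 and 0.219 CPM. Levels between genes were compared by TPM, since CPM is not per length.

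Promoter sequences and positions are from RefSeq, GRCh38.p14, the assembly of hg38; all 50 symbols matched a RefSeq gene. The 50 genes, their role groups and the context lists were chosen with earlier results of these data known. Named with values in all libraries are, per role group, the genes with the largest and smallest ratio of luteolin + TGF-β1 over TGF-β1 and the most abundant per length; remaining members are given by ratio, some also with levels chosen after their values were seen. From each context list up to 4 called genes with the largest such ratios are named, and MYC always. POLR1G under TGF-β1, NOP10, SNU13, RPAP3, RIOK3, RPL39, RPS9, RPL27, MLXIP, MAX, MXD1, MXD4 and P2RY11 were singled out after their values were seen. Alternatives were total-count, DESeq2 1.42.0 and upper quartile scaling, 2 other filters and a 1.5-fold rule; 2 more were chosen after seeing the data.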

Additional observations from a re-analysis of the deposited data

How the results depend on the processing

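The counts of called genes and the medians of the ribosome biogenesis genes were recomputed under each alternative. With DESeq2 size factors, no filter on low counts, a filter at 5 CPM, or TMM factors computed without the ribosome assembly and proliferation genes (chosen after seeing the data), every count was within 1.5 times its value in the report, and the medians lay between 0.29 and 0.33 for TGF-β1 over control, -0.94 and -0.91 for luteolin + TGF-β1 over TGF-β1, and -0.61 and -0.56 over control. Total counts gave 33 genes lower than under TGF-β1 (beside 19.7% of all genes) and a median of -1.15 (all genes -0.27). Over control they gave 23 lower (beside 25.5% of all genes) and 0 higher (all genes 1077 of 13811). The median over control was then -0.95 (all genes -0.43). Upper quartile scaling gave 1 gene higher than under TGF-β1, beside 2221 of 13739 over all genes. Over control it gave 2 higher (all genes 2207 of 13893) and 5 lower (beside 14.2% of all genes). POLR1E, NOP56, WDR12 and NOC3L were no longer called there. The 1.5-fold rule gave 4 genes higher under TGF-β1, beside 8.29% of all genes. For luteolin + TGF-β1 over TGF-β1 it gave 40 lower and 1 higher, beside 24.3% and 21.3% of all genes. For luteolin + TGF-β1 over control it gave 26 lower, beside 26.3% of all genes. Leaving out NOP2 and PPAN (chosen after seeing the data) gave 0 genes higher than control with luteolin + TGF-β1. That outcome was fixed in advance, because PPAN was the only such gene. NOP56 over control was also not called with DESeq2 size factors or with TMM factors without those genes. No called gene changed direction under these alternatives. By scaling, the genes with a ratio below equality numbered 47 of 50 with TMM, DESeq2 and the upper quartile and 48 with total counts for luteolin + TGF-β1 over TGF-β1, between 41 and 48 over control, and between 4 and 12 of 49 for TGF-β1 over control.

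No paired analysis was possible because each group has 1 library, and no replicate exists to leave out. Depth limits NOP2, at 10 to 17 counts, whose interval holds 2-fold differences in either direction in the TGF-β1 comparison. LYAR and DDX10 in the luteolin + TGF-β1 library rest on 52 and 108 counts.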

Other observations

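RNA polymerase III, which makes the small ribosomal RNA and transfer RNAs and shares POLR1C and POLR1D with RNA polymerase I, had 3 of 11 of its own subunit genes lower with luteolin + TGF-β1 than under TGF-β1 and 0 higher, against 14.8% lower and 12.5% higher over all genes, with a median log2 ratio of -0.53. POLR3G, an alternative subunit known from stem and tumour cells, was at 14.1, 9.31 and 1.24 CPM (libraries in the order of the report) and was 7.49-fold lower (-2.90, interval -3.73 to -2.17). POLR3K was lower at -1.23 and POLR3E at -1.12, the latter not called with the upper quartile (-0.94).

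The MYC network had 10 of 12 genes at 1 CPM or more. MYC itself was at 49.0, 78.1 and 42.5 CPM, highest with TGF-β1, with a log2 ratio of 0.67 over control (0.55 to 0.80) and of -0.88 for luteolin + TGF-β1 over TGF-β1 (-1.02 to -0.73) under TMM. With total counts the latter was -1.10, past 2-fold and called lower. MAX, the partner through which MYC binds DNA, was at 38.2, 42.3 and 44.1 CPM. MXI1, which competes with MYC for MAX, was at 8.34, 6.09 and 21.2 CPM and was higher with luteolin + TGF-β1 than under TGF-β1 at 1.80 (1.45 to 2.15). MXD3, of the same family, was lower at -2.54 on 14.9, 28.5 and 4.90 CPM. MXD4 and MXD1 had ratios of 0.95 and 0.63, short of 2-fold, although MXD4 was at 1.12 and called higher with the upper quartile. MLXIP was higher under TGF-β1 at 1.17.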
